A study of Mus musculus with 8 samples.

Results

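The response to house dust mite (HDM) in butyrate mice was read as the difference between lesional and baseline skin across all genes. The labels placed 4 of the 8 mice of the series in this comparison, 2 with lesional skin (replicates 3 and 4) and 2 with baseline skin (replicates 1 and 3). All were BALB/c mice labelled as 6 to 8 weeks old on a low-fibre diet, and all 4 drank 400 mM sodium butyrate, the salt of a short-chain fatty acid (SCFA), for 2 weeks before the allergen period and throughout it. Lesional mice, females in the allergen model, also received 4 epicutaneous exposures to 15 µg of HDM over 2 weeks on shaved dorsal skin under an occlusive dressing. Baseline mice received butyrate but no allergen, and their skin was taken at the end of the butyrate treatment. The labels do not say whether the baseline skin sequenced here was shaved or occluded, so any effect of these steps and of HDM cannot be told apart. The mouse numbers in the labels begin with 5 for baseline and with 6 for lesional mice, so the set of mice and HDM cannot be told apart either. The other 4 mice (CTL) drank water, 2 at baseline (replicates 1 and 2) and 2 with lesional skin (replicates 4 and 5).

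RNA from the skin was sequenced and reported as counts per gene, with 18700064 to 21064109 counts in the 4 butyrate mice. Of 22740 listed genes, 15163 passed a filter on low counts and were tested. A level is a count scaled to library size (CPM), and a gene was called where the fold change was above 2 and the adjusted p of edgeR's quasi-likelihood test (FDR) was below 0.1. With 2 mice in each group, an exact permutation test of a single value cannot give a p under 0.333, so the calls rest on a spread shared across genes and across all 8 mice. The labels do not say whether replicates were processed apart, so p-values measure the spread between these mice and may include technical spread. In whole skin, fewer cells of a type and less RNA per cell cannot be told apart.

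The baseline butyrate mice disagreed with each other far more than the mice of any other group. Of 14247 genes with a mean of at least 1 CPM in this pair, 3849 (27.0%) lay more than 2-fold apart, against 1.43% in baseline CTL, 1.19% in lesional CTL and 4.41% in lesional butyrate mice. Across 14319 genes, the correlation of log levels was 0.82 between the baseline butyrate mice and 0.99 between baseline butyrate replicate 1 and either baseline CTL mouse, a description across genes, which are not independent. Replicate 1 was within 2-fold of the baseline CTL mean in 3656 of the 3849 genes, and replicate 3 in 591. Baseline butyrate replicate 3 therefore stood apart, and the main counts are given with and without it.

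The outer epidermis is built by keratinocytes that leave the basal layer, fill with keratins and then crosslink a shell of small proline-rich and late cornified envelope proteins beneath the membrane. In injured or inflamed epidermis this programme shifts towards stress keratins, antimicrobial proteins and chemokines that draw neutrophils. HDM carries proteases and other products that act on the skin barrier and on its sensory nerves, and repeated exposure gives an eczema-like inflammation. Hair follicles alternate between growth and rest, and the keratins of the hair shaft and of the inner root sheath are made by growing follicles.

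Between lesional and baseline skin of butyrate mice 53 genes were called (0.350% of those tested), of which 42 (0.277%) were higher and 11 (0.0725%) were lower in lesional skin. The higher genes were led by small proline-rich, late cornified envelope, stefin, antimicrobial and neutrophil genes, and the lower genes included the natriuretic peptide receptor Npr3, arginase Arg1 and the clock gene Per1. The 2 lesional mice did not overlap the 2 baseline mice in any of the 53 genes. The test favours such genes, so this lends the calls no further support. Over all tested genes the groups did not overlap in 2378 genes (15.7%) that were higher and in 2555 (16.9%) that were lower. An unadjusted p below 0.05 was found in 1993 genes. The median log2 fold change of all tested genes was −0.04.

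The number of calls depended on which mouse served as baseline. Against replicate 1 alone 912 of 15349 genes (5.94%) were called, with 384 higher and 528 lower. Against replicate 3 alone 2990 of 15677 genes (19.1%) were called, with 1742 higher and 1248 lower. In both fits the lone baseline mouse was assumed to vary like the other groups. Of the 53 genes, 52 were called in the same direction against each baseline mouse alone, and the other, Ddx26b, was not called against replicate 1. The count also fell when any other mouse was left out, to 0 without lesional CTL replicate 4, 5 without replicate 5, 5 and 6 without baseline CTL replicates 1 and 2, and 2 and 6 without lesional butyrate replicates 3 and 4. When only the 4 butyrate mice entered the fit, edgeR called 0 genes, and 681 had an unadjusted p below 0.05. All 53 genes kept their direction in each of these fits.

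**Figure D1:**
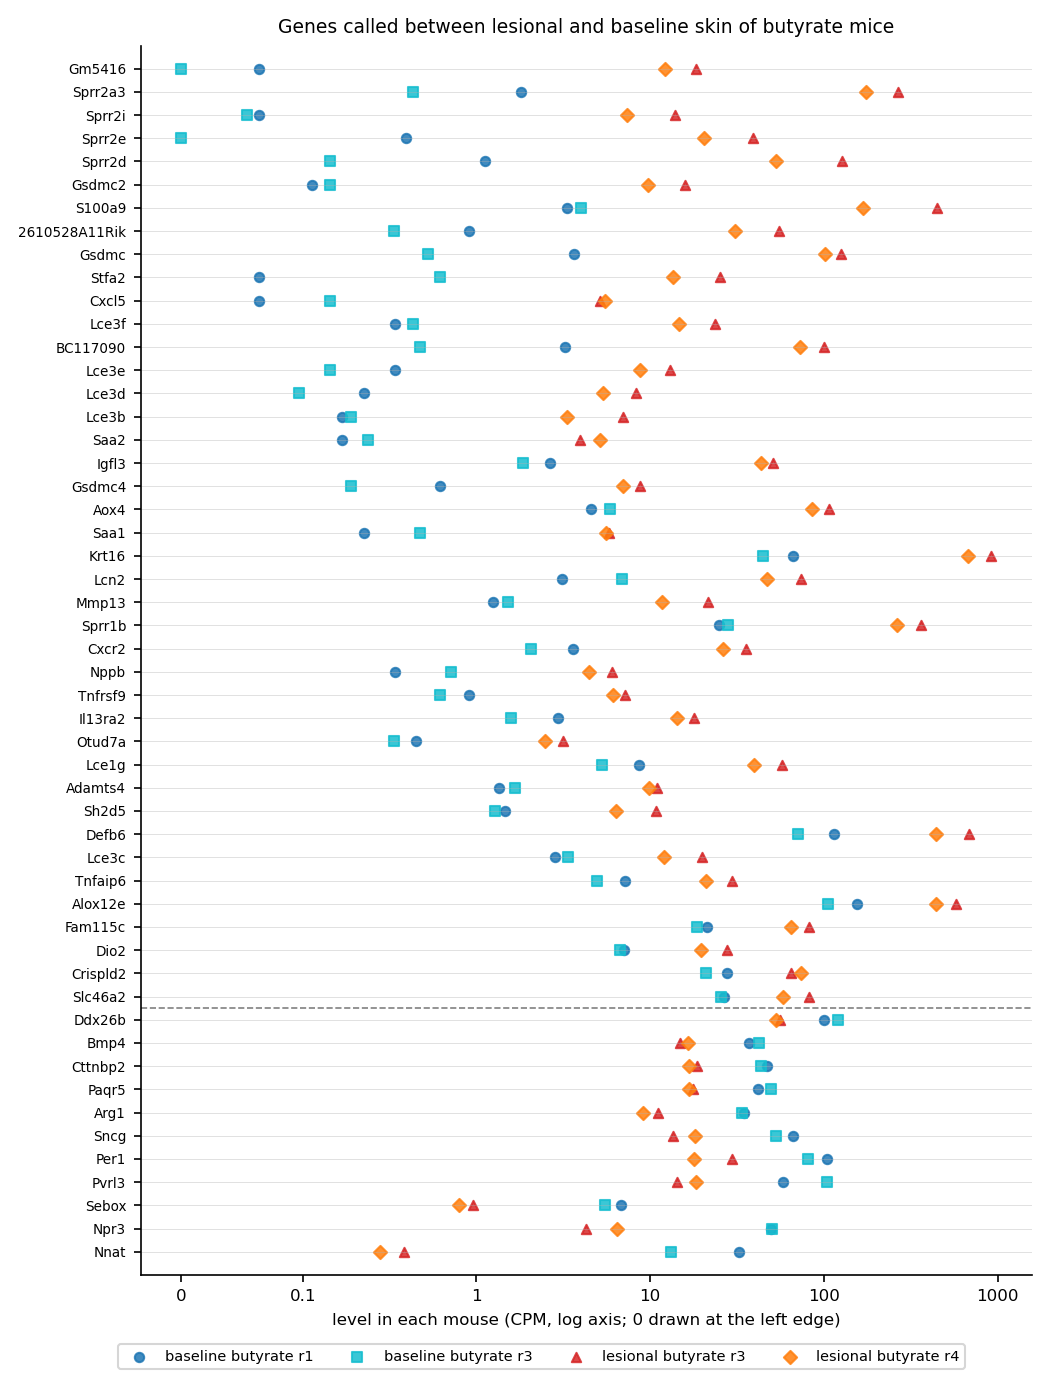
Level of 52 of the 53 called genes in the 4 butyrate mice (CPM, log axis, 0 drawn at the left edge), ordered by log2 fold change, with 41 higher genes above the dashed line and 11 lower genes below it. Blue circles and turquoise squares are baseline mice, red triangles and orange diamonds are lesional mice, and in every row the lesional mice lie on one side of both baseline mice.

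Small proline-rich proteins are crosslinked into the cornified envelope, and their genes had the highest median fold change of the 51 gene lists. Of 14 tested members 5 were called higher and none lower, and the median log2 fold change was 5.67 (5.16 with members at 0 in both baseline mice set to their lower bound). Sprr2i (chr3:92407991-92409271) was counted once in each baseline mouse and 292 and 159 times in the lesional mice, a ratio of 206 (95% counting interval, 56.6 to 1704). Sprr2e was at 0.39 and 0 CPM in baseline replicates 1 and 3, and at 39.3 and 20.3 CPM in lesional replicates 3 and 4. Sprr2d was at 1.13 and 0.14 CPM in the baseline mice and at 127 and 52.8 CPM in the lesional mice. In all 3 genes both lesional mice lay above both baseline mice. Sprr2a3 moved from 1.80 and 0.43 CPM to 268 and 174 CPM, a log2 fold change of 7.65 ± 0.83 (SE, n = 2 mice per group, edgeR FDR 0.0571). These paralogs share long stretches of sequence, so the division of reads among them is uncertain.

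Sprr1b (chr3:92436809-92438789) had the smallest p of all genes. It was at 24.8 and 28.2 CPM in the baseline mice and at 363 and 265 CPM in the lesional mice, a log2 fold change of 3.56 ± 0.21 (SE, edgeR FDR 0.0147). The baseline mice differed little in this gene, and the value was 3.66 against replicate 1 alone and 3.48 against replicate 3 alone. Its neighbour Sprr1a showed the opposite: it was at 137 CPM in baseline replicate 1 but at 1516 CPM in replicate 3, beside 1329 and 1005 CPM in the lesional mice. Sprr1a was accordingly called higher against replicate 1 alone, with a log2 fold change of 3.10, and was not called against both mice (0.50 ± 0.92, FDR 0.858).

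The sequence just upstream of the start is shown for 3 Sprr2 genes that were all called higher, to let their promoters be compared. Each run is 100 bases long, ends at the base before the RefSeq start and is on the plus strand of GRCm38.p6, with the letters TATAAA in capitals. Sprr2d was read at chr3:92339040-92339139, Sprr2e at chr3:92352043-92352142 and Sprr2i at chr3:92407891-92407990.
Sprr2d: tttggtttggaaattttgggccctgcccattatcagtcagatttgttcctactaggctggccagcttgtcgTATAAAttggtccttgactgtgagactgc
Sprr2e: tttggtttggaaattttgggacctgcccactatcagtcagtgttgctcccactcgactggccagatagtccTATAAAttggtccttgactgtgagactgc
Sprr2i: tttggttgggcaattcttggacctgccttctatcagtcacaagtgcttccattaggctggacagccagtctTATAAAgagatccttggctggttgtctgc
Sprr2d and Sprr2e were identical at 89 of the 100 bases, without gaps and with the best shift of up to 5 bases, and Sprr2i was identical to them at 73 and 74 bases. Of the 42 higher genes 31 matched a RefSeq promoter by symbol, and 10 of these (32.3%) held TATAAA on the gene's strand within 250 bases before the start, against 521 of 11161 matched tested genes (4.67%). TGANTCA, the AP-1 motif, searched on both strands as were the next motifs, stood in 8 of the 31 (25.8%) and in 557 of 11161 (4.99%). Il13ra2, Mmp13, Sprr1b, Sprr2d, Sprr2e and Sprr2i held both motifs, and the Sprr paralogs among them are not independent counts. TTCNNNGAA, a STAT-like motif, stood in 2 of the 31 (6.45%) and in 674 of 11161 (6.04%), while an NF-kB-like motif (GGG, any 3 bases, then TTCC) stood in none of the 31 and in 570 of 11161 (5.11%). Overlap between motifs in a window was not counted. None of the 4 motifs stood in the 8 matched genes of the 11 that were lower. These counts describe letters in a window and show no binding.

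Late cornified envelope (LCE) proteins are a second class of envelope component, and 6 of 21 tested LCE genes were called higher and none lower. The median log2 fold change was 1.74, against −0.42 in CTL mice, where 6 LCE genes were also called higher and 1 was called lower. No gene passed the test of the difference between the responses, and the butyrate median depended on the baseline mouse, as given below. The called members were 5 of the 6 tested Lce3 genes and a single Lce1 gene. Those 5 Lce3 genes were called higher in CTL mice too. Lce3f was at 0.34 and 0.43 CPM in the baseline mice and at 23.7 and 14.6 CPM in the lesional mice (log2 fold change 5.61 ± 0.40, SE, edgeR FDR 0.0232). Lce3e was at 0.34 and 0.14 CPM at baseline and at 13 and 8.70 CPM in lesional skin. Lce3d was at 0.23 and 0.10 CPM at baseline and at 8.30 and 5.35 CPM in lesional skin. These 3 genes were near 0 in both baseline mice. Lce3b and Lce3c also rose, by 4.78 and 2.35 on the log2 scale. Lce3a, counted at 0.06 and 0.14 CPM at baseline and at 4.58 and 2.51 CPM in lesional skin, did not pass (FDR 0.146).

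The same 100 bases upstream are shown for 3 of the Lce3 genes, all on the plus strand of GRCm38.p6 (RefSeq), with the longest run that all 3 share in capitals. Lce3d was read at chr3:92957290-92957389, Lce3e at chr3:92966961-92967060 and Lce3f at chr3:92992117-92992216.
Lce3d: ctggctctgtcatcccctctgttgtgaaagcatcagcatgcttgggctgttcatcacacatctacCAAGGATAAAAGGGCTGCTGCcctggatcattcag
Lce3e: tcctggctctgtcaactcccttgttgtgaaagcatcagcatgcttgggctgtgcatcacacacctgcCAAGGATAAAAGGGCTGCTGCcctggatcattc
Lce3f: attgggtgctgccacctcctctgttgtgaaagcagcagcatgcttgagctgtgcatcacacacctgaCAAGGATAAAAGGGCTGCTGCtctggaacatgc
The shared run is 21 bases long, and the windows were identical at 82 to 91 of 100 bases in pairs by the same measure.

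Among the other LCE genes the baseline mice often disagreed. Lce1g was at 8.63 and 5.29 CPM at baseline and at 57.5 and 39.6 CPM in lesional skin, a log2 fold change of 2.81 ± 0.34 (SE, edgeR FDR 0.0709). Lce1m, at 611 CPM in baseline replicate 1 and 139 CPM in replicate 3, was at 177 and 107 CPM in lesional skin (−1.41 ± 0.82, FDR 0.522). Of 16 LCE genes with at least 1 CPM at baseline, 14 were more than 2-fold higher in replicate 1 and none was more than 2-fold higher in replicate 3. The LCE median, 1.74 against both baseline mice, was 2.76 against replicate 3 alone and 1.15 against replicate 1 alone.

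Keratin 16, a stress keratin of injured epidermis, was higher in lesional than in baseline skin. Krt16 (chr11:100246091-100248902) was at 66.2 and 44.6 CPM in the baseline mice and at 922 and 674 CPM in the lesional mice (log2 fold change 3.85 ± 0.34, SE, edgeR FDR 0.0295). Krt6b, a partner keratin, was at 57.9 and 19.1 CPM at baseline and at 612 and 519 CPM in lesional skin, and just missed the threshold (3.88 ± 0.57, FDR 0.104). Krt16 and the stefin gene Stfa2 were the calls among 23 injury-induced keratin and hyperproliferation genes, with a median of 0.81. The list's median was 1.66 against replicate 1 alone and 0.81 against replicate 3 alone. In the gap junction gene Gjb2 the baseline mice lay far apart, at 8.68 CPM in replicate 1 and 1430 CPM in replicate 3. The lesional mice were at 139 and 82.1 CPM. Krt17 behaved likewise, at 668 and 2671 CPM at baseline and at 2472 and 1701 CPM in lesional skin.

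Stefin A-like genes encode inhibitors of cysteine proteases, and 3 of them, Stfa2, Gm5416 and BC117090, were called higher. Gm5416 (chr16:36210403-36217788) had 1 and 0 counts in the baseline mice and 386 and 261 in the lesional mice, a ratio of 590 (95% counting interval, 106 to 23353). BC117090 was at 3.21 and 0.48 CPM at baseline and at 99.9 and 73.2 CPM in lesional skin. Stfa3 was the most abundant of the family in lesional skin, at 469 and 264 CPM, but its baseline values of 7.33 and 0.86 CPM lay far apart and it did not pass (FDR 0.126). Reads of this multigene family may be divided among its members.

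Several antimicrobial and neutrophil genes were called higher. S100a9, the partner of S100a8 in calprotectin, was at 3.33 and 4.00 CPM in the baseline mice and at 445 and 169 CPM in the lesional mice (log2 fold change 6.39 ± 0.61, SE, edgeR FDR 0.0378). S100a8 was at 3.04 and 7.86 CPM at baseline and at 265 and 102 CPM in lesional skin, and lay just outside the threshold (5.06 ± 0.73, FDR 0.102). The iron-binding protein gene Lcn2 rose from 3.10 and 6.86 CPM to 74.3 and 46.8 CPM, and the beta-defensin gene Defb6 rose from 114 and 71.4 CPM to 685 and 441 CPM. Of 14 tested antimicrobial genes 3 were called higher and none lower, with a median of 2.37 (2.13 with bounds).

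Cxcl5 is a neutrophil chemoattractant and Cxcr2 is its receptor, and both were called. Cxcl5 (chr5:90759360-90761624) was counted 1 and 3 times in the baseline mice and 108 and 118 times in the lesional mice. Cxcr2 was at 3.61 and 2.05 CPM at baseline and at 35.7 and 26.4 CPM in lesional skin (3.46 ± 0.32, SE, edgeR FDR 0.0341). Of 16 neutrophil markers 3 were called (Cxcr2, Lcn2 and S100a9), and in 14 the lesional mice lay above both baseline mice, where 15.7% of all genes did. The summed level of the 18 listed markers was 104 and 53.9 CPM at baseline and 945 and 480 CPM in lesional skin, so lesional replicate 3 held the higher values. Ly6g, which marks neutrophils, was at 0.06 CPM or less in all 4 mice, Elane was at 0.37 CPM or less, and Lcn2 and S100a9 are also made by keratinocytes. The share of neutrophils in the calls was not tested.

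Of 6 tested neutrophil chemoattractants and growth factors only Cxcl5 was called. Cxcl1 was at 2.37 and 0.48 CPM at baseline and at 6.73 and 6.05 CPM in lesional skin (FDR 0.278). Cxcl2 was at 1.35 and 0.24 CPM at baseline and at 1.57 and 0.93 CPM in lesional skin (FDR 0.752).

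No alarmin, interleukin-1, interleukin-36 or interleukin-20 family cytokine was called among 16 tested, although the median was 2.18. The lesional mice lay above both baseline mice in 13 of the 16, where 15.7% of all tested genes did. Il1b was at 4.62 and 1.33 CPM at baseline and at 19.9 and 25.5 CPM in lesional skin (2.94 ± 0.56, SE, edgeR FDR 0.165). Il33, an alarmin of barrier cells, was at 33.4 and 10.2 CPM at baseline and at 86.0 and 75.5 CPM in lesional skin (1.89 ± 0.50, FDR 0.251). Il1f6, which encodes interleukin-36 alpha, was at 2.65 and 0.71 CPM at baseline and at 63.3 and 25.4 CPM in lesional skin (4.74 ± 0.72, FDR 0.111). In these 3 genes baseline replicate 3 was the lowest mouse, and the list's median was 3.53 against it alone and 1.74 against replicate 1 alone.

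Type 2 cytokines were low throughout, and none of 3 tested was called. Il13 was at 0.28 and 0.05 CPM at baseline and at 2.39 and 1.86 CPM in lesional skin (FDR 0.218). Its decoy receptor Il13ra2 was called, at 2.93 and 1.57 CPM at baseline and at 17.9 and 14.3 CPM in lesional skin (2.84 ± 0.36, SE, edgeR FDR 0.0732). Il4ra, the shared receptor chain for interleukin-4 and interleukin-13, was at 49.2 and 26.1 CPM at baseline and at 104 and 91.1 CPM in lesional skin (1.38 ± 0.31, FDR 0.198). Il13ra2 was the only call among 21 tested receptors of alarmins and type 2 cytokines.

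Mast cell genes were higher in lesional skin without passing the test. Cpa3, which encodes a mast cell protease, was at 50.2 and 27.8 CPM at baseline and at 101 and 105 CPM in lesional skin (1.4 ± 0.32, SE, edgeR FDR 0.203). None of 12 mast cell and basophil markers was called, with a median of 1.18. The lesional mice lay above both baseline mice in 10 of the 12, where 15.7% of all tested genes did. T cell and innate lymphoid markers had a median of 1.25 with none of 13 called. Macrophage and dendritic cell markers had a median of 0.46 with none of 15 called, and their summed level was 1253 and 336 CPM in the baseline mice against 760 and 1365 CPM in the lesional mice, so the groups overlapped.

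The proteases Adamts4 and Mmp13 were called among 25 tested matrix genes. Adamts4 was at 1.35 and 1.67 CPM at baseline and at 10.9 and 9.82 CPM in lesional skin (2.77 ± 0.22, SE, edgeR FDR 0.0232). Mmp13 was at 1.24 and 1.52 CPM at baseline and at 21.4 and 11.7 CPM in lesional skin (3.57 ± 0.44, FDR 0.0709). Both genes had close baseline mice.

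Of 17 tested itch and nerve guidance genes 2 were called. Nppb, which encodes a natriuretic peptide that also acts in itch circuits, was at 0.34 and 0.71 CPM at baseline and at 6.06 and 4.47 CPM in lesional skin (3.29 ± 0.44, SE, edgeR FDR 0.0879). Npr3, the clearance receptor of natriuretic peptides, went the other way. Npr3 (chr15:11839896-11907287) was at 49.8 and 50.1 CPM in the baseline mice and at 4.25 and 6.47 CPM in the lesional mice, a log2 fold change of −3.22 ± 0.31 (FDR 0.0378).

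The gasdermin C genes, which encode proteins of a pore-forming family, gave 3 calls. Gsdmc was at 3.66 and 0.52 CPM at baseline and at 125 and 101 CPM in lesional skin. Gsdmc2 was counted 2 and 3 times at baseline and 331 and 208 times in lesional skin, and Gsdmc4 was at 0.62 and 0.19 CPM and then at 8.69 and 6.93 CPM. Reads shared among these paralogs make their separate values uncertain.

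Acute-phase serum amyloid genes also rose, with Saa1 at 0.23 and 0.48 CPM at baseline and at 5.82 and 5.54 CPM in lesional skin. Saa2 was called with a log2 fold change of 4.43 ± 0.62 (SE, edgeR FDR 0.0925). Igfl3, an insulin growth factor-like gene, was at 2.65 and 1.86 CPM at baseline and at 51.0 and 43.5 CPM in lesional skin (4.39 ± 0.27, FDR 0.0147). 2610528A11Rik, which encodes the ligand of the receptor GPR15, was at 0.90 and 0.33 CPM at baseline and at 54.8 and 30.7 CPM in lesional skin. These 4 genes were low in both baseline mice.

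Aox4, an aldehyde oxidase gene, was at 4.57 and 5.91 CPM at baseline and at 107 and 85 CPM in lesional skin (4.19 ± 0.51, SE, edgeR FDR 0.0709). Alox12e, an epidermal lipoxygenase gene, rose from 156 and 105 CPM to 577 and 443 CPM. The other calls in this direction were Tnfrsf9, Tnfaip6, Otud7a, Sh2d5, Dio2, Fam115c, Crispld2 and Slc46a2, with log2 fold changes between 1.43 (Slc46a2) and 3.13 (Tnfrsf9).

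Among the 11 lower genes, Nnat had the largest fold. Nnat (chr2:157560078-157562522), an imprinted gene that encodes neuronatin, was at 32.5 and 13.1 CPM in the baseline mice and at 0.38 and 0.28 CPM in the lesional mice (−6.08 ± 0.79, SE, edgeR FDR 0.0811). Arg1, which encodes the urea cycle enzyme arginase, was at 34.9 and 33.8 CPM at baseline and at 11.1 and 9.07 CPM in lesional skin (−1.77 ± 0.21, FDR 0.0709). Bmp4, a growth factor gene with a role in follicle rest, was at 37.0 and 42.3 CPM at baseline and at 14.8 and 16.6 CPM in lesional skin (−1.33 ± 0.15, FDR 0.0571). These 3 genes were also lower in CTL mice. The other lower genes were Sebox, Pvrl3, Per1, Sncg, Cttnbp2, Paqr5, Ddx26b and Npr3, and Ddx26b had the smallest fold (−1.02).

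Per1, a repressor of the circadian clock, was at 105 and 80.6 CPM at baseline and at 29.4 and 17.9 CPM in lesional skin (−1.97 ± 0.28, SE, edgeR FDR 0.0946). It was the only call among 16 clock genes, whose median was −0.72. The lesional mice lay below both baseline mice in 9 of the 16, where 16.9% of all tested genes did. Dbp, a clock output gene, was at 171 and 60.8 CPM at baseline and at 17.4 and 33.9 CPM in lesional skin (−2.17 ± 0.54, FDR 0.234). Arntl, another clock gene, was at 20.6 and 25.3 CPM at baseline and at 45.7 and 36.9 CPM in lesional skin (FDR 0.181). The time of day of collection is not given in the sources used here.

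No list of lipid metabolism genes held a call. Only 0.350% of all tested genes were called, so lists of this size without a call say little about their genes. None of 29 fatty acid oxidation genes was called, with a median of −0.30. In 15 of the 29 both lesional mice lay below both baseline mice, where 16.9% of all tested genes did. None of 22 cholesterol synthesis genes was called, although all 22 had a positive log2 fold change, with a median of 0.33. Slc16a1, a transporter of butyrate and other monocarboxylates, was at 67.5 and 22.7 CPM at baseline and at 136 and 123 CPM in lesional skin (1.52 ± 0.47, FDR 0.288). No gene was called among 23 ceramide genes, 21 fatty acid synthesis genes or 35 electron transport and ATP synthase genes, with medians of 0.58, 0.33 and −0.08. In 10 of the 23 ceramide genes both lesional mice lay above both baseline mice, where 15.7% of all tested genes did, and in 0 below. The ceramide median was 1.28 without baseline butyrate replicate 1 and 0.30 without replicate 3.

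One list was taken from the genes the study itself measured by RT-PCR in lesional skin, so its direction is not independent evidence. The study compared butyrate with CTL mice there and reported some genes lower and others higher. The contrast here is lesional against baseline skin, so the list's median cannot be set against that result. Of its 18 genes none was called, with a median of 0.37. In 8 of the 18 both lesional mice lay above both baseline mice, where 15.7% of all tested genes did. Smpd1, a sphingomyelin breakdown gene of this list, was at 86.2 and 90.9 CPM at baseline and at 111 and 90.9 CPM in lesional skin (0.19 ± 0.13, SE, edgeR FDR 0.615).

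**Figure D2:**
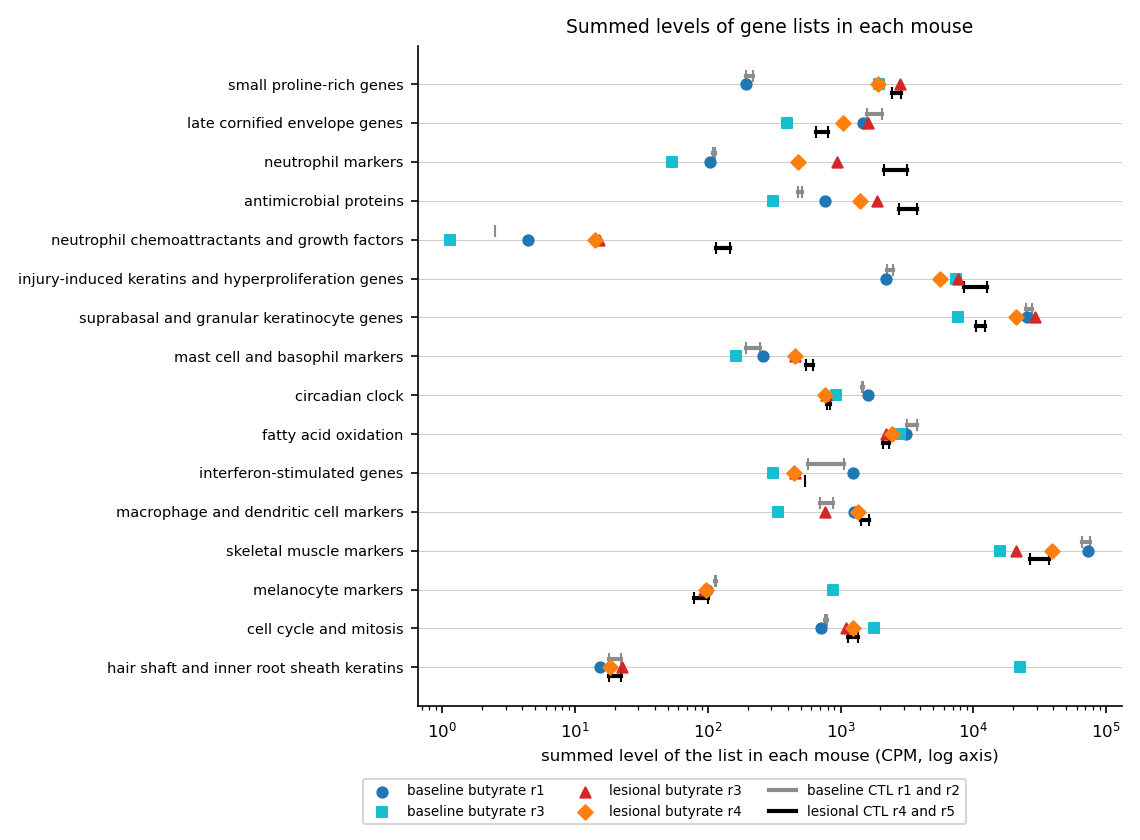
Summed level of 16 gene lists in each mouse (CPM, log axis), with symbols for the 4 butyrate mice, grey bars joining the 2 baseline CTL mice and black bars joining the 2 lesional CTL mice. Baseline butyrate replicate 3 (turquoise squares) lies far to the right for hair keratins (22669 CPM) and to the left for skeletal muscle, interferon-stimulated and macrophage genes.

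The disagreement of the baseline mice followed recognisable gene groups. Hair shaft and inner root sheath keratins and their partners summed to 22669 CPM in baseline butyrate replicate 3 and to 15.4 CPM in replicate 1, and the other 6 mice held 18 to 22.4 CPM. Krt71, an inner root sheath keratin, was at 0.62 CPM in replicate 1 and at 3882 CPM in replicate 3, and at 0.86 and 0.14 CPM in the lesional mice. Krt25, another keratin of that sheath, was at 0.06 CPM in replicate 1 and at 3027 CPM in replicate 3. All 21 members with a mean of at least 1 CPM at baseline were more than 2-fold higher in replicate 3, as were all 49 keratin-associated protein genes at that level. The keratin-associated protein genes summed to 7.72 CPM in replicate 1 and to 9567 CPM in replicate 3. Members of both lists reached that mean largely through replicate 3, so these counts were built into the filter.

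Genes that regulate hair growth were more than 2-fold higher in the same mouse in 16 of 24 cases, and 2 were more than 2-fold higher in replicate 1. Over all genes with a mean of at least 1 CPM in this pair, 1440 of 14247 were more than 2-fold higher in replicate 3. Hoxc13, a regulator of hair keratins, was at 9.47 and 243 CPM in replicates 1 and 3, and Msx2 was at 2.03 and 124 CPM. Melanocyte markers summed to 98.0 CPM in replicate 1 and 880 CPM in replicate 3, and Dct, a pigment enzyme gene, was at 17.3 and 278 CPM. Of 30 cell cycle genes 22 were more than 2-fold higher in replicate 3. In the lesional mice the hair keratins summed to 22.4 and 18.5 CPM, the melanocyte markers to 94.2 and 96.1 CPM and the cell cycle genes to 1092 and 1236 CPM, against 716 and 1776 CPM at baseline. None of the 13 tested hair keratins was called, nor any melanocyte or cell cycle gene.

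Other groups were low in replicate 3. Skeletal muscle markers summed to 73442 CPM in replicate 1 and 15939 CPM in replicate 3, and to 20912 and 39063 CPM in the lesional mice, and all 20 were more than 2-fold higher in replicate 1. Acta1, skeletal muscle actin, was at 13735 and 2674 CPM at baseline and at 3645 and 6843 CPM in lesional skin. Interferon-stimulated genes were more than 2-fold higher in replicate 1 in 22 of 24 cases, and macrophage and dendritic cell markers in 15 of 15. The same held for complement genes in 14 of 14 and genes of antigen presentation by MHC class II in 11 of 11. Over all genes with a mean of at least 1 CPM in this pair, 2409 of 14247 were. Cd74, the invariant chain of MHC class II, was at 599 and 138 CPM.

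Differentiated keratinocyte genes were low in replicate 3 as well. Suprabasal and granular genes summed to 25571 CPM in replicate 1 and 7737 CPM in replicate 3, and to 29089 and 21026 CPM in the lesional mice. Krt10, the main suprabasal keratin, was at 6706 and 1065 CPM at baseline and at 4849 and 3984 CPM in lesional skin (0.18 ± 0.80, SE, edgeR FDR 0.945). Krt77, another suprabasal keratin, was at 4392 and 858 CPM at baseline and at 3106 and 2445 CPM in lesional skin. Lor, the major envelope protein loricrin, was at 542 and 119 CPM at baseline and at 423 and 297 CPM in lesional skin (0.12 ± 0.65, FDR 0.957). In these 3 genes both lesional mice lay between the baseline mice, so the sign of the fold depended on the mouse used as reference. Ivl, which encodes involucrin, ran the other way, at 150 and 344 CPM at baseline and at 350 and 247 CPM in lesional skin. Basal keratinocyte genes differed less, with Krt14 at 2513 and 2420 CPM at baseline and at 4668 and 4921 CPM in lesional skin (0.96 ± 0.25, FDR 0.250).

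**Figure D3:**
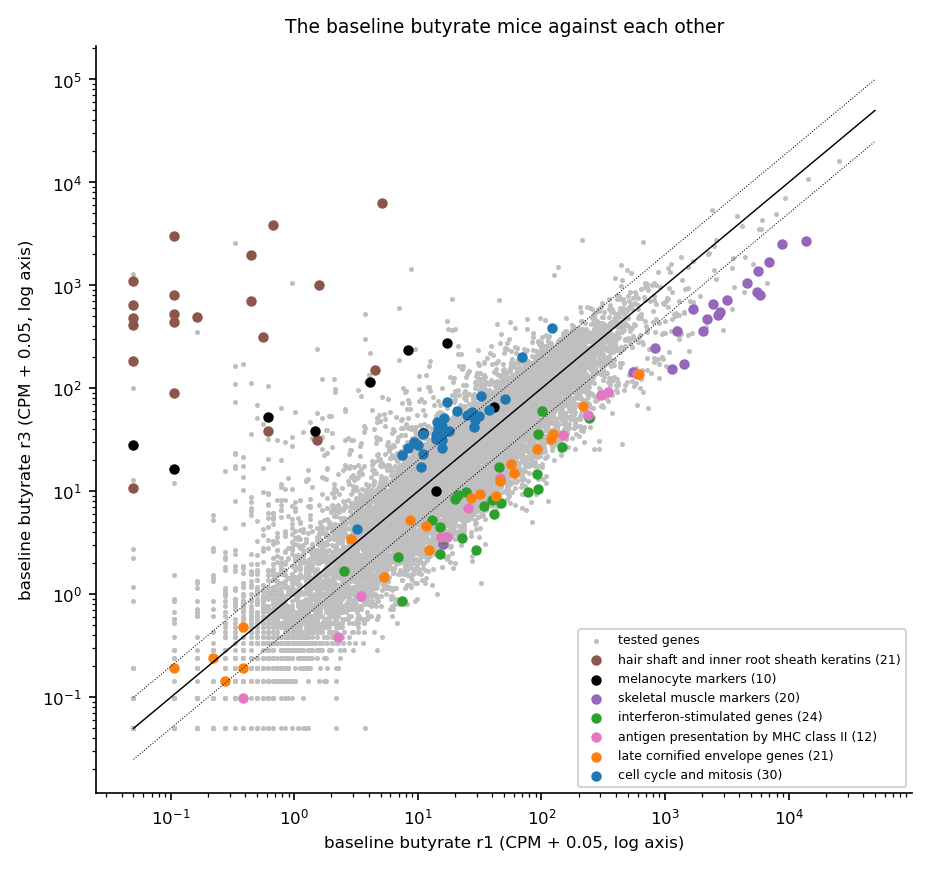
Level of each tested gene in the baseline butyrate mice, replicate 1 across and replicate 3 up (CPM + 0.05, log axes), with 7 gene lists in colour. The solid line marks equal levels and the dotted lines mark 2-fold, and hair keratin and melanocyte genes lie above the lines while muscle, interferon-stimulated and MHC class II genes lie below.

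The lesional mice often lay between the baseline mice. Of 2409 genes more than 2-fold higher in replicate 1, both lesional mice lay between the baseline values in 1290, above both in 376 and below both in 65. Of 1440 genes more than 2-fold higher in replicate 3, both lesional mice lay between in 769, above both in 27 and below both in 268. Among the genes higher in replicate 1 the lesional mean was nearer to replicate 1 in 1459 genes and nearer to replicate 3 in 950. Among the genes higher in replicate 3 it was nearer to replicate 1 in 1158 and nearer to replicate 3 in 282.

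Across 15318 genes tested against each baseline mouse alone, 299 were called in the same direction against both, 226 higher and 73 lower, and 65 were called in opposite directions. Of the 65 genes, 30 were higher against replicate 1 and lower against replicate 3, and 35 were the reverse. Gjb2 was the most abundant gene of the first kind, with a log2 fold change of 3.67 against replicate 1 and −3.69 against replicate 3. Oas2, an antiviral interferon-stimulated gene, was of the second kind, at 93.2 and 10.4 CPM at baseline and at 20.4 and 24.2 CPM in lesional skin, with −2.06 against replicate 1 and 1.10 against replicate 3. For such genes no direction of the HDM response can be given.

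**Figure D4:**
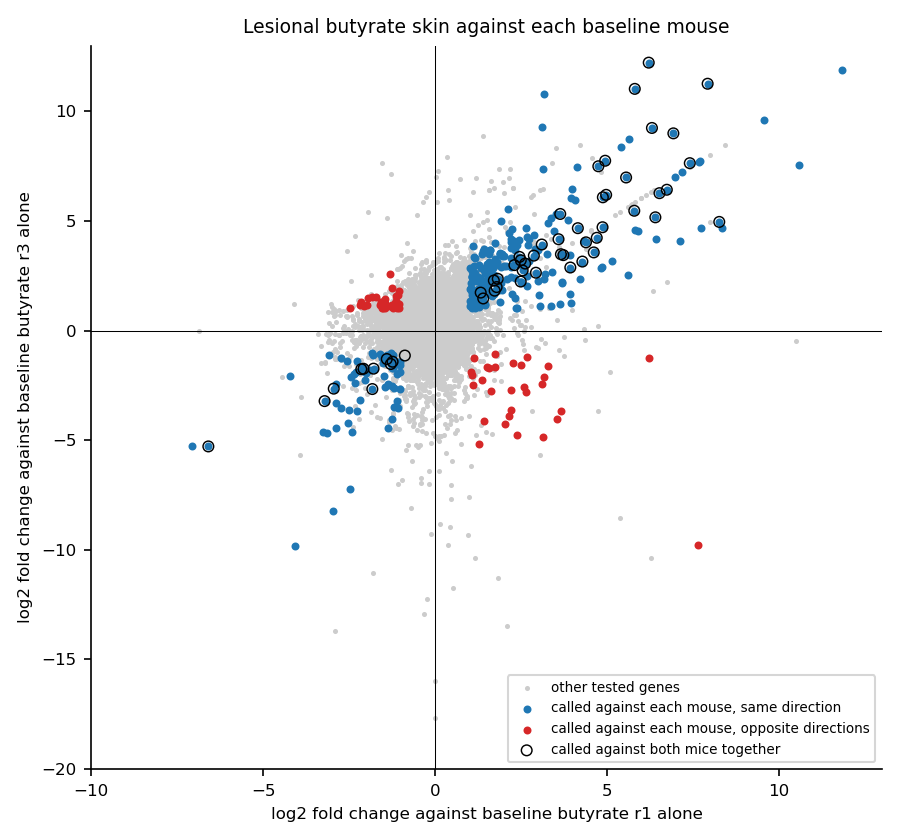
Log2 fold change of each gene in lesional butyrate skin against baseline butyrate replicate 1 alone (across) and against replicate 3 alone (up). Blue points are the 299 genes called in the same direction against each mouse, red points the 65 genes called in opposite directions, and open circles the 53 genes called against both mice together, none of which is red.

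Of the 53 called genes 17 also had baseline mice more than 2-fold apart, but the lesional mice lay outside both. The median distance between the baseline mice was 0.33 on the log2 scale in the called genes and 0.50 in all tested genes. The test weighs the spread within groups, including these mice, so a smaller distance in called genes is built into the choice. Of 3849 genes that disagreed, 174 were removed by the filter on low counts. The share of counts in untested genes was 1.84% in baseline butyrate replicate 3 and 0.0246% to 0.0300% in the other 7 mice.

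In CTL mice, fitted together with the butyrate mice, 543 genes were called (3.58%), 360 higher and 183 lower. Read in butyrate mice, 346 of the 360 higher genes and 176 of the 183 lower genes had the same sign, where 66.6% of all tested genes had the same sign in both contrasts, and 40 and 10 passed the test. The median log2 fold change of the higher genes was 2.76 in CTL and 1.73 in butyrate mice, and that of the lower genes was −1.59 and −0.75. The genes were picked in CTL mice, so a smaller size elsewhere is built into the choice. Without baseline butyrate replicate 3 the butyrate medians were 1.49 and −0.86, and without replicate 1 they were 2.23 and −0.54.

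All 53 genes called in butyrate mice had the same sign in CTL mice, and 50 were called there too. The other 3 were Lce1g, Npr3 and Slc46a2. Lce1g was at 20.3 and 13.8 CPM in baseline CTL and at 27.1 and 28.6 CPM in lesional CTL skin, where the log2 fold change was 0.71. Npr3 was at 42.9 and 69.1 CPM in baseline CTL and at 38.3 and 35.3 CPM in lesional CTL skin, and so was far lower in the lesional butyrate mice than in any other mouse. The test of the difference between the responses gave −2.61 for Npr3, with an unadjusted p of 0.000553 in edgeR and an FDR of 0.84, and 2.10 for Lce1g, with an unadjusted p of 0.00332 and the same FDR.

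No gene passed the test of the difference between the butyrate and CTL responses in edgeR. In that test 703 genes had an unadjusted p below 0.05, limma-voom called none and DESeq2 called 37. Cxcl5 reached 5.15 and 5.49 CPM in lesional butyrate and 62.1 and 67.4 CPM in lesional CTL skin, a difference between responses of −3.19 (edgeR FDR 0.84). Mmp13 reached 21.4 and 11.7 CPM against 128 and 78.2 CPM (−3.69), and Nppb reached 6.06 and 4.47 CPM against 17.5 and 15.4 CPM (−3.84). Baseline levels enter these differences too, and Nppb was at 0.34 and 0.71 CPM in baseline butyrate and at 0.06 and 0.17 CPM in baseline CTL skin. Cxcl2 reached 1.57 and 0.93 CPM against 18.8 and 31.8 CPM (−6.11, unadjusted p 0.00154 in edgeR). It was at 1.35 and 0.24 CPM in baseline butyrate and at 0.17 and 0.28 CPM in baseline CTL skin. For both Nppb and Cxcl2, baseline values near 0 make the size of the difference uncertain. The prostaglandin synthase gene Ptgs2 reached 21.0 and 14.0 CPM against 52.3 and 40.9 CPM (−2.03, unadjusted p 0.00174 in edgeR). In these 5 genes the lesional butyrate mice lay below the lesional CTL mice, and the FDR of the difference was 0.84 in each.

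**Figure D5:**
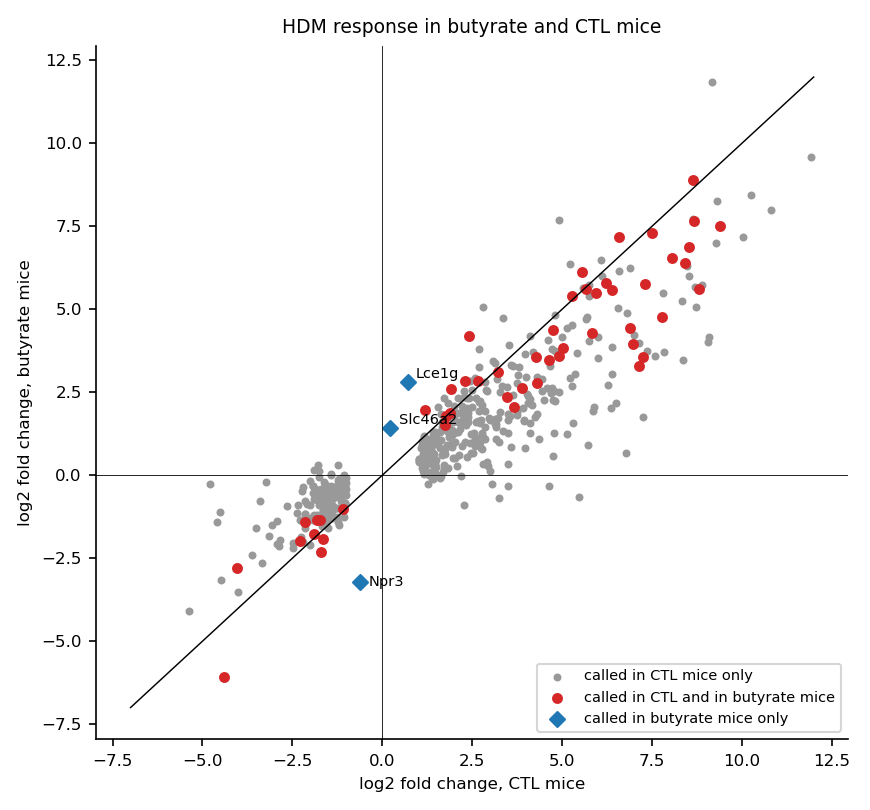
Log2 fold change between lesional and baseline skin in CTL mice (across) and in butyrate mice (up) for the genes called in either, with the line of equal change. Red points are 50 genes called in both, grey points are called in CTL mice only, and blue diamonds are Lce1g, Npr3 and Slc46a2, called in butyrate mice only.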

How the data were processed

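The authors aligned reads with STAR (version 2.5.2, per the labels) to GRCm38 and counted them with featureCounts within RNASik, and they deposited raw counts per gene for protein-coding genes, without pooling of mice. Counts were used as deposited. In R 4.3.3, libraries were scaled by TMM and genes filtered by filterByExpr (minimum count 10), and edgeR 4.0.16 fitted 1 mean per group over all 8 mice (robust quasi-likelihood, 4 residual degrees of freedom, prior count 0.125 for printed folds), with Benjamini-Hochberg adjustment. Calls required FDR below 0.1 and a fold above 2, the rule the study names for limma-voom. Alternatives used limma 3.58.1, DESeq2 1.42.0, other scalings and filters, and omission of each mouse. Scripts were tested on simulated data. Totals ran from 18004136 to 21085544 counts, and counting intervals cover counting error only. Gene positions come from GENCODE for GRCm38 and promoters from RefSeq (GRCm38.p6), taking the first listed start of a gene. The rule for named genes took the 15 largest called increases and decreases, up to 4 called genes per list or else its 2 most abundant, the RT-PCR genes, the 10 genes with the smallest p for the difference, and the 10 genes per direction furthest apart between the baseline mice. The other called genes, and Sprr1a, Lce3a, Krt6b, Gjb2, Krt17, Stfa3, Il1f6, Dbp, Arntl, Hoxc13, Msx2, Oas2, Krt1, Ly6g and Elane, were chosen after their values were seen. The 4 mice and the 51 gene lists were chosen with earlier results of these data known. A few genes are not reported here.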

Additional observations from a re-analysis of the deposited data

Results flagged for a closer look

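Krt1, a suprabasal keratin, moved in opposite directions in the 2 arms. It was at 2961 and 372 CPM in the baseline butyrate mice and at 4007 and 3072 CPM in the lesional butyrate mice, while it was at 3356 and 3292 CPM in baseline CTL and at 1478 and 1507 CPM in lesional CTL skin. Both lesional butyrate mice thus lay above their baseline and both lesional CTL mice below theirs. The difference between the log2 fold changes was 2.24 and did not pass (edgeR FDR 0.84). The low value of baseline butyrate replicate 3 enters this difference, and the butyrate fold was 0.26 without that mouse and 3.26 without replicate 1.

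Elovl6, a fatty acid elongase gene, showed the same pattern. It was at 894 and 435 CPM in the baseline butyrate mice and at 1411 and 1204 CPM in the lesional ones, against 906 and 801 CPM in baseline CTL and 733 and 529 CPM in lesional CTL skin. The difference was 1.41 and did not pass (edgeR FDR 0.84). The butyrate fold was 0.98 with both baseline mice, 0.55 without replicate 3 and 1.59 without replicate 1. Within a group of 2 mice, Dixon's test for a single distant value could not be applied.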

How the results depend on the processing

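No paired analysis was possible because baseline and lesional butyrate mice share only 1 replicate number, 3, and no source says that it marks a shared cage or day. The count of 53 genes was 83 with library totals, 698 with DESeq2, 17 at an FDR below 0.05, 0 with only the 4 butyrate mice and 0 by limma-voom with sample quality weights, and ranged from 0 to 2990 as each mouse was left out. Without baseline butyrate replicate 3, chosen after seeing the data like the quality weights, it was 919 by limma-voom and 1052 by DESeq2. All 53 genes kept their direction in each of these fits, and 53 were shared with DESeq2 and 36 with limma-voom. The difference between the responses (0 genes) gave 37 by DESeq2 and 166 by DESeq2 without that mouse, with 0 to 3275 as each mouse was left out, the highest without baseline butyrate replicate 1. For genes called in CTL mice, read in butyrate mice, the share with the same direction (96.13%) was 91.03% with DESeq2, 82.18% with quality weights, 91.74% by limma-voom and 92.87% by DESeq2 without baseline butyrate replicate 3, and 59.5% to 100% as each mouse was left out. With a minimum of 10 CPM the baseline mice disagreed in 2376 genes. Signs reversed without baseline butyrate replicate 3, by limma-voom and DESeq2, for Cxcl2 (−0.16 and −0.10), Krt10 (−0.61 and −0.59), Krt77 (−0.67 and −0.65) and Lor (−0.61 and −0.58), as did the log2 fold change in butyrate mice, Gjb2 (3.62 and 3.69). As each mouse was left out, the log2 fold change ran from −1.39 to 0.98 for Acta1, −0.11 to 2.37 for Cxcl2, −3.69 to 3.67 for Gjb2, −0.20 to 0.99 for Ivl, −0.60 to 2.06 for Krt10, −0.35 to 1.65 for Krt17, −0.66 to 1.70 for Krt77, −2.11 to 0.028 for Lce1m, −0.59 to 1.61 for Lor, −2.06 to 1.10 for Oas2, −1.18 to 0.24 for Sema3d and −0.37 to 3.10 for Sprr1a. The causes were not tested. Precision is limited by 2 mice per group, and for genes near 0 counts also by depth.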
